A study of Mus musculus with 9 samples.

Results

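Cells take up glucose through transporters and break it down by glycolysis, and at several steps the genome holds more than 1 gene for the same task. The 10 genes described here cover 5 of those steps. They are the glucose transporters Slc2a1 and Slc2a3, the hexokinases Hk1 and Hk2, the phosphofructokinases Pfkl, Pfkm and Pfkp, the aldolases Aldoa and Aldoc, and the pyruvate kinase gene Pkm. The members were chosen by name, as rows of a table of raw RNA-seq counts that held 38293 genes, of which 25109 had at least 1 count. All 10 were found by their Ensembl identifiers and all 10 passed the filter on low counts in every comparison.

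The libraries came from E14, an established mouse embryonic stem cell (mESC) line of strain 129/Ola, in 3 states with 3 biological replicates each. mESC-2i, labelled naive, grew in N2B27, a medium without serum, with 10 ng/mL LIF, 1 µM of PD0325901, which inhibits the kinase MEK, and 3 µM of CHIR99021, which inhibits GSK3. mESC-ser, labelled primed, grew in DMEM with 15% foetal bovine serum and 10 ng/mL LIF on gelatin. EpiLC (epiblast-like cells) were made from mESC-2i on fibronectin, in N2B27 with 20 ng/mL activin A, 12 ng/mL bFGF and 1% KSR, without the inhibitors or LIF. Media, coating and state therefore change together and cannot be told apart. The time in EpiLC medium and the glucose content of the media were not given in the sources used here. All cells are of 1 line, so p-values measure the spread between replicate cultures of that line. That spread was uneven. Chi-square per degree of freedom, a measure of spread relative to counting error, was 1.61 between replicates 1 and 2 of mESC-ser. It was 10.9 and 11 between these and replicate 3, up to 28.3 within mESC-2i and up to 4.53 within EpiLC.

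Isozymes carry out the same reaction but differ in affinity, control and place in the cell. GLUT1, encoded by Slc2a1, is the basal transporter of most cells, while GLUT3, encoded by Slc2a3, has a high affinity for glucose and is known from neurons and the early embryo. Hexokinase traps glucose as glucose 6-phosphate, phosphofructokinase catalyses the committed step of glycolysis, aldolase splits its product, and pyruvate kinase makes pyruvate, from which lactate is formed. The study chose mESC-2i and mESC-ser as states that differ in metabolism, and the question here is which isozyme of each step the 3 states express.

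Total counts ranged from 7187576 to 16829549 per library. Levels are given as RPKM, reads relative to gene length and library size scaled by TMM, so that genes can be compared with each other. Differences between groups are log2 fold changes from the edgeR quasi-likelihood F-test on the counts. Genes with a Benjamini-Hochberg adjusted p below 0.05 that also moved by more than 0.5 on the log2 scale, up or down, were called. The summed level of 6 naive markers was 2378 to 2589 CPM (counts relative to library size, not length) for mESC-2i, 1315 to 1449 for mESC-ser and 30.9 to 37.4 for EpiLC. That of 5 formative markers was 92 to 106, 663 to 791 and 1730 to 1802 CPM. The mESC-ser libraries, although labelled primed, thus kept naive markers at a level far above that of EpiLC. The summed level of 6 fibroblast markers was 43.9 to 51.7 CPM for mESC-2i, 57.5 to 77.5 for mESC-ser and 40.8 to 45.5 for EpiLC, and its part in the results was not tested. The fibroblast markers did not move together, with Thy1 at 3.08, 4.37 and 29.5 CPM, Dcn at 0.475, 0.163 and 8.5, Col1a1 at 22.8, 49.1 and 1.48, and Col3a1 at 12.1, 2.1 and 0.182 in the same order. Mesendoderm markers (4 genes) summed to 106 to 122, 12.2 to 15.7 and 12.9 to 14.5 CPM in the same order of states. Trophectoderm markers (4) summed to 35 to 40, 14.2 to 17.2 and 15.8 to 17.6, and primitive endoderm markers (6) to 11.2 to 11.5, 14.5 to 16.3 and 2.26 to 4.37. The mesendoderm sum in mESC-2i was mostly T (86.5, 4.34 and 1.35 CPM). Eomes, which is on the trophectoderm list too, and Gsc were also highest there, while Mixl1 was highest in EpiLC (0.926, 0.425 and 1.9). Of the primitive endoderm markers, Gata4 and Foxa2 were highest in mESC-2i and the others in mESC-ser. Among the trophectoderm markers, Cdx2 (15.6, 2.42 and 0.279 CPM) was also highest in mESC-2i, while Krt7 was highest in EpiLC (5.96, 4.35 and 6.59). The naive marker Zfp42 was higher in mESC-ser than in mESC-2i (297, 349 and 11.8 CPM in the order of states), with overlap, and the other naive markers were lower.

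**Figure D1:**
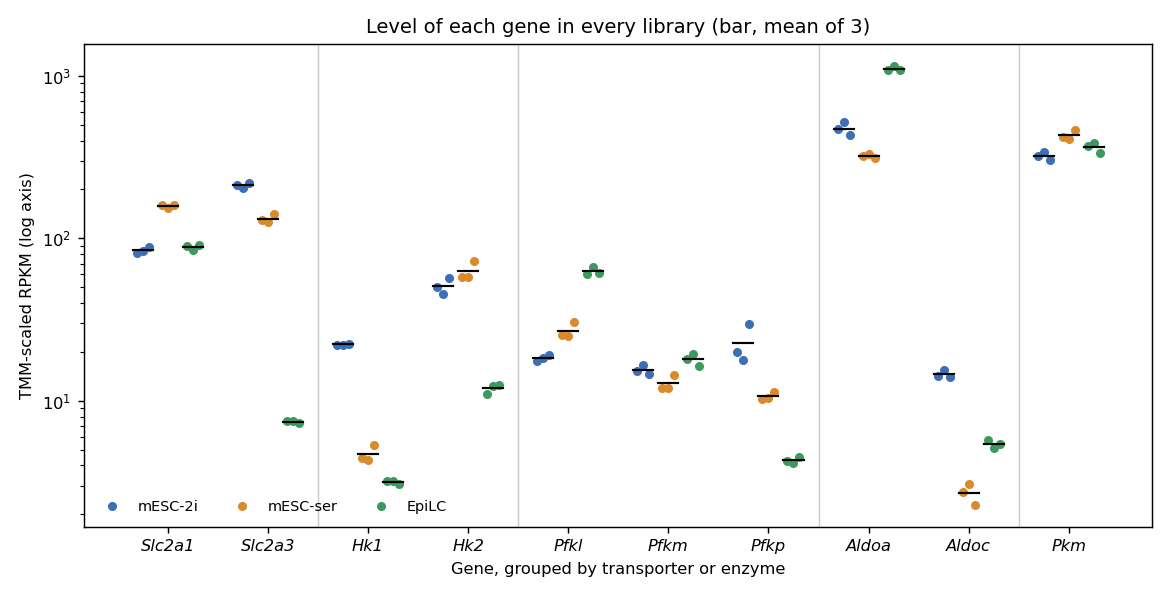
Level of the 10 genes in each of the 9 libraries, as TMM-scaled RPKM on a log axis, with points for libraries and a bar for the mean of 3. Slc2a3 lies at 205 to 218 RPKM in mESC-2i and at 7.31 to 7.54 in EpiLC, while Pfkl goes the other way, from 17.5 to 19.2 up to 60.7 to 66.8.

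Slc2a3 fell to a few percent of its mESC level in EpiLC, while Slc2a1 in EpiLC stood at about its mESC-2i level. Slc2a3 (ENSMUSG00000003153, chr6:122727809-122801640, minus strand, GRCm38) stood at 214, 205 and 218 RPKM in replicates 1, 2 and 3 of mESC-2i, at 130, 126 and 141 in mESC-ser, with 7.54, 7.48 and 7.31 in EpiLC. The 3 groups did not overlap, and every EpiLC library was low. Its fold change in EpiLC was 0.035 against mESC-2i (log2 -4.84, SE 0.11, adjusted p = 4.15e-10) and 0.0589 against mESC-ser (log2 -4.08, SE 0.09, adjusted p = 5.1e-15). In mESC-ser it fell by 0.71 on the log2 scale (SE 0.10, adjusted p = 0.000131) relative to mESC-2i. The EpiLC values rest on 410, 496 and 422 counts, so the gene was still measured well above the floor of 3 counts. By mean RPKM it ranked 307 of 21996 genes above 0 for mESC-2i, 390 of 22800 for mESC-ser and 6127 of 21060 for EpiLC. In bulk libraries such as these, fewer cells that express a gene and less RNA per cell cannot be told apart.

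Slc2a1 (ENSMUSG00000028645, chr4:119108711-119137983, plus strand) was highest in mESC-ser. Its level was 81.6, 83.4 and 88.4 RPKM in mESC-2i, 161, 153 and 161 in mESC-ser, with 89.4, 85.1 and 91.5 in EpiLC. The mESC-ser libraries stood above all others, and mESC-2i and EpiLC overlapped. Slc2a1 rose 1.84-fold in mESC-ser against mESC-2i (log2 0.88, SE 0.10, adjusted p = 1.95e-05) and fell by 0.77 on the log2 scale in EpiLC against mESC-ser (SE 0.08, adjusted p = 6.88e-08). Between EpiLC and mESC-2i the log2 fold change was 0.07 (SE 0.09, adjusted p = 0.491). The value turned to -0.27 (adjusted p = 0.0151) when libraries were scaled by total counts alone. It was 0.34 (adjusted p = 0.00174) once gene length and GC content were corrected for. Both stayed under the threshold on fold change.

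The dominant transporter RNA therefore differed between the states. Slc2a3 made up 71.5% ± 0.767 (SD, n = 3) of the summed level of the pair for mESC-2i, 45.6% ± 1.03 for mESC-ser and 7.75% ± 0.339 for EpiLC. In ratios, Slc2a3 was 2.46 to 2.63 times Slc2a1 for mESC-2i, 0.811 to 0.878 times for mESC-ser and 0.0799 to 0.0879 times for EpiLC. The share in EpiLC was 63.8 percentage points below that in mESC-2i and 37.8 points below that in mESC-ser, and the share in mESC-ser was 26 points below that in mESC-2i. None of the 3 ranges overlapped. The summed level of both transporters was 297 ± 9.15 RPKM for mESC-2i, 291 ± 11.8 for mESC-ser and 96.1 ± 3.21 for EpiLC. The mESC groups overlapped in this sum, and every EpiLC library was below them, at 0.324 of the mESC-2i mean.

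Both hexokinase genes were low in EpiLC, but only Hk1 differed between the mESC states beyond the thresholds. Hk1 (ENSMUSG00000037012, chr10:62268855-62379908, minus strand), the hexokinase of most tissues, which binds mitochondria, stood at 22.1, 22.1 and 22.5 RPKM in mESC-2i. It was at 4.44, 4.33 and 5.37 in mESC-ser, with 3.23, 3.21 and 3.07 in EpiLC. The mESC-2i libraries were far above the rest, and mESC-ser and EpiLC did not overlap. Hk1 fell by 2.26 on the log2 scale in mESC-ser against mESC-2i (SE 0.11, adjusted p = 7.87e-08) and by 2.81 in EpiLC against mESC-2i (SE 0.09, adjusted p = 2.32e-09). In EpiLC against mESC-ser the value of -0.50 (SE 0.10, adjusted p = 0.000197) was only just past the threshold on fold change. It turned to 0.13 (adjusted p = 0.122) once gene length and GC content were corrected for, and it dropped under the threshold without replicate 3 of mESC-ser (-0.41) and without replicate 2 (-0.50) or 3 (-0.47) of EpiLC.

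Hk2 (ENSMUSG00000000628, chr6:82725025-82774454, minus strand) encodes the inducible hexokinase, known from muscle, early embryos and tumours. It stood at 50.3, 45.7 and 56.8 RPKM in mESC-2i, 57.5, 57.9 and 72.6 in mESC-ser, with 11, 12.3 and 12.5 in EpiLC. The 3 EpiLC libraries were all low, and the lowest mESC-ser library was only just above the highest mESC-2i library. Hk2 fell by 2.09 on the log2 scale in EpiLC against mESC-2i (SE 0.11, adjusted p = 5.47e-08) and by 2.32 against mESC-ser (SE 0.10, adjusted p = 1.53e-12). In mESC-ser against mESC-2i the log2 fold change was 0.27 (SE 0.12, adjusted p = 0.0758, and 0.00565 with same-numbered libraries as blocks), under the threshold on fold change in both fits.

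In all 9 libraries Hk2 held the larger part of the hexokinase RNA per length. Its share was 69.5% ± 2.09 (SD, n = 3) for mESC-2i, 93% ± 0.142 for mESC-ser and 79% ± 1.45 for EpiLC, with no overlap between any 2 groups. The ratio of Hk2 to Hk1 was 2.07 to 2.52 for mESC-2i, 13 to 13.5 for mESC-ser and 3.42 to 4.06 for EpiLC. These values depend on the length used, here merged exons. Hk1 has 8532 bases of merged exons but a longest transcript of 4278, beside 5969 and 5513 for Hk2. With the longest transcript as length, the share of Hk2 and its ratio to Hk1 are therefore smaller in every state. The intermediate share in EpiLC stood beside a low total. The summed level was 73.2 ± 5.79 RPKM for mESC-2i, 67.4 ± 9.15 for mESC-ser and 15.1 ± 0.721 for EpiLC, which is 0.207 of the mESC-2i mean.

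**Figure D2:**
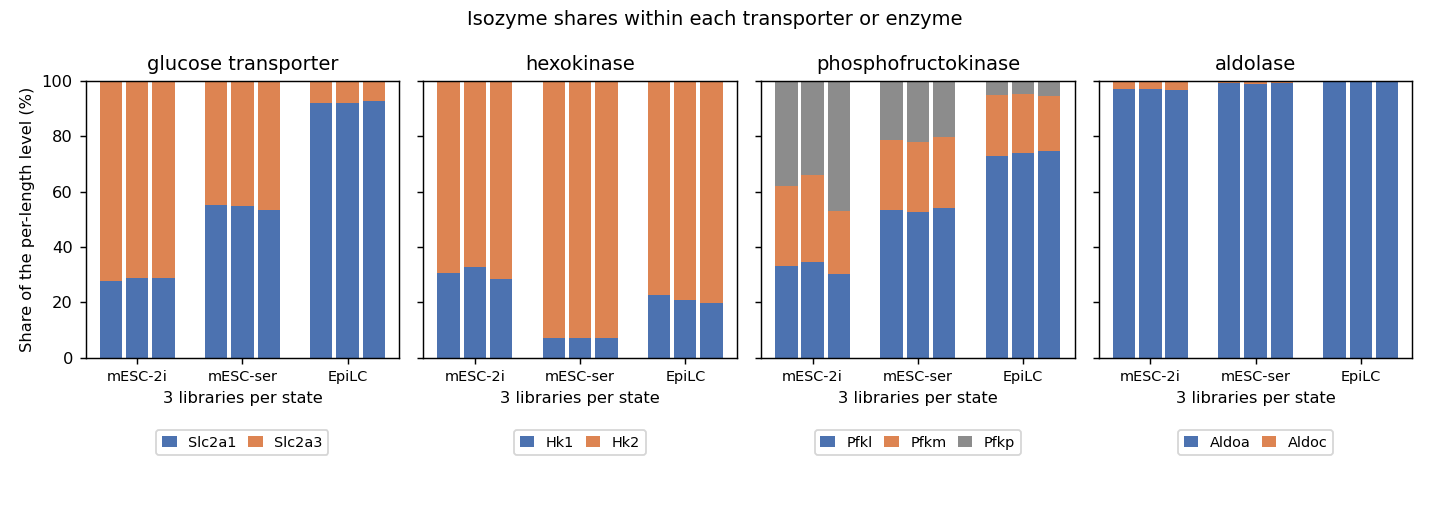
Share of each isozyme, in percent of the summed per-length level of its transporter or enzyme, in each of the 9 libraries, with 1 bar per library. Slc2a3 goes from 71.1 to 72.4% in mESC-2i down to 7.4 to 8.08% in EpiLC, Hk2 is largest in mESC-ser at 92.8 to 93.1%, and Pfkl goes from 30.2 to 34.6% in mESC-2i up to 73 to 74.7% in EpiLC.

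At phosphofructokinase the 3 genes went different ways, with Pfkl higher and Pfkp lower in EpiLC than in mESC-2i. Pfkl (ENSMUSG00000020277, chr10:77986947-78010083, minus strand), the liver-type subunit, stood at 17.5, 18.3 and 19.2 RPKM in mESC-2i, 25.3, 25.2 and 30.7 in mESC-ser, with 60.7, 66.8 and 61.3 in EpiLC. The groups stood in steps with no overlap. Pfkl rose 3.42-fold in EpiLC against mESC-2i (log2 1.78, SE 0.09, adjusted p = 5.35e-08) and 2.45-fold against mESC-ser (log2 1.29, SE 0.09, adjusted p = 5.57e-10). Its rise in mESC-ser against mESC-2i was small (log2 0.53, SE 0.11, adjusted p = 0.00119), and it dropped under the threshold without replicate 3 of mESC-ser (0.46) and with the correction for length and GC content (0.48).

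Pfkp (ENSMUSG00000021196, chr13:6579768-6648777, minus strand), the platelet-type subunit, stood at 20, 17.9 and 29.8 RPKM in mESC-2i, 10.2, 10.4 and 11.4 in mESC-ser, with 4.24, 4.17 and 4.52 in EpiLC. Replicate 3 of mESC-2i was higher than the others, yet the groups did not overlap. Pfkp fell by 1.11 on the log2 scale in mESC-ser (SE 0.17, adjusted p = 0.000246) and by 2.39 in EpiLC (SE 0.18, adjusted p = 5.87e-07) relative to mESC-2i. In EpiLC against mESC-ser the log2 fold change was -1.24 (SE 0.08, adjusted p = 3.75e-10). Pfkp has the longest exonic sequence of the members (13401 bases). With the correction for length and GC content this value was 0.07 (adjusted p = 0.287), whereas the fall against mESC-2i was -1.48 and kept its call.

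Pfkm (ENSMUSG00000033065, chr15:98092589-98132451, plus strand), the muscle-type subunit, moved least of the 3. Its levels were 15.3, 16.6 and 14.6 RPKM in mESC-2i, 12, 12 and 14.5 in mESC-ser, with 18.2, 19.5 and 16.3 in EpiLC, so mESC-2i and EpiLC overlapped. The log2 fold change was -0.30 in mESC-ser against mESC-2i (SE 0.11, adjusted p = 0.0358), short of the threshold on fold change. In EpiLC against mESC-2i it was 0.22 (SE 0.10, adjusted p = 0.0753). That value was 0.42 (adjusted p = 0.00128) with the correction for length and GC content, and -0.12 (adjusted p = 0.278) with total-count scaling. Between EpiLC and mESC-ser Pfkm passed, at 0.56 (SE 0.10, adjusted p = 4.98e-05), but not with the correction for length and GC content (0.37) or with total-count scaling (0.22). The summed level of the muscle markers Myod1, Ckm and Acta1 was 3.06 to 4.84 CPM for mESC-2i, 12.5 to 14.3 for mESC-ser and 4.02 to 5.13 for EpiLC, with Myod1 at 0 in all mESC-2i libraries. The higher sum in mESC-ser was that of Acta1 (3.48, 12.8 and 3.02 CPM in this order). Ckm was lowest in mESC-ser (0.622, 0.287 and 0.607), and Myod1 was highest in EpiLC (0.975).

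Per length, the phosphofructokinase RNA was spread over the 3 genes in mESC-2i and consisted mainly of Pfkl in EpiLC. Pfkl made up 32.7% ± 2.25 (SD, n = 3) for mESC-2i, 53.4% ± 0.699 for mESC-ser and 73.8% ± 0.849 for EpiLC. Pfkp made up 39.6% ± 6.6, 21.2% ± 0.883 and 5.08% ± 0.449, and neither gene overlapped between any 2 groups. The share of Pfkm was 27.8% ± 4.36, 25.4% ± 0.201 and 21.1% ± 1.12, and overlapped between mESC-2i (22.9 to 31.4%) and mESC-ser (25.2 to 25.6%). In mESC-2i the order of Pfkp and Pfkl was not stable, with a ratio of Pfkp to Pfkl of 1.14, 0.981 and 1.55 in the 3 libraries. It was 0.373 to 0.415 in mESC-ser and 0.0625 to 0.0738 in EpiLC. The summed level was 56.4 ± 6.19, 50.5 ± 5.22 and 85.2 ± 4.54 RPKM, which puts EpiLC above both mESC groups without overlap, at 1.51 times the mESC-2i mean.

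Promoter sequences are shown for Hk2 and Pfkp, which fell in EpiLC against mESC-2i in different steps of the pathway and each have 1 listed transcription start. RefSeq (GRCm38.p6) listed 17 starts for 9 of the members, and Slc2a3 had no entry in the table used. The 250 bases before each start were searched on both strands for ACGTG, the core of the element that hypoxia-inducible factors bind, and for CACGTG, the E-box that holds this core. Capitals mark ACGTG or its reverse complement, and both sequences run 5′ to 3′ on the strand of the gene (minus), Hk2 from chr6:82774455-82774704 and Pfkp from chr13:6648778-6649021, where 6 bases inside the GENCODE gene are left off.
Hk2: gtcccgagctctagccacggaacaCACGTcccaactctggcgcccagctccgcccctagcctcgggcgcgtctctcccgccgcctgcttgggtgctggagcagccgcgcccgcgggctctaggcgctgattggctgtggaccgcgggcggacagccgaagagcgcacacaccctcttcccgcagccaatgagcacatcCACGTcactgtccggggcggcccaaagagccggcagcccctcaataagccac
Pfkp: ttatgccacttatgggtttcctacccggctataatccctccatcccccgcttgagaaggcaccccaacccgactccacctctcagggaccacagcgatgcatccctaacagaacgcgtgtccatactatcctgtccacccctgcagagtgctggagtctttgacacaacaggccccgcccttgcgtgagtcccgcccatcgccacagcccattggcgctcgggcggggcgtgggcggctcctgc
Hk2 held 2 matches to ACGTG and Pfkp held none in these letters. Over the members, 7 of 17 starts in 5 genes (Slc2a1, Hk2, Pfkm, Aldoa and Pkm) had a match, and 16.6% of all 32851 promoters of the table did. Windows of starts of 1 gene can overlap, and the matches at the second and the third start of Aldoa are 1 site counted at both. CACGTG was found at 1 start, of Pfkm, and in 6.02% of all promoters. The matches stood before genes that rose, fell or did not pass the test in EpiLC, and say nothing about binding.

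Aldolase was almost entirely Aldoa in every state, and Aldoa rose in EpiLC. Aldoa (ENSMUSG00000030695, chr7:126795234-126800751, minus strand), the form of muscle and most other tissues, stood at 471, 517 and 433 RPKM in mESC-2i, 323, 329 and 313 in mESC-ser, with 1084, 1151 and 1085 in EpiLC. The groups did not overlap, and EpiLC was highest. Aldoa rose 2.34-fold in EpiLC against mESC-2i (log2 1.22, SE 0.11, adjusted p = 2.52e-06) and 3.61-fold against mESC-ser (log2 1.85, SE 0.08, adjusted p = 1.72e-12). In mESC-ser it fell by 0.58 on the log2 scale against mESC-2i (SE 0.11, adjusted p = 0.000719), a call that was lost with the correction for length and GC content (-0.28). Aldoa ranked 94, 93 and 107 by mean RPKM among all genes above 0 in mESC-2i, mESC-ser and EpiLC.

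Aldoc (ENSMUSG00000017390, chr11:78322968-78327781, plus strand), the brain form, had its highest level in mESC-2i, at 14.3, 15.4 and 14.1 RPKM. It stood at 2.74, 3.06 and 2.29 in mESC-ser, with 5.76, 5.09 and 5.39 in EpiLC, so the order of the states was not that of Aldoa and no groups overlapped. Aldoc fell by 2.47 on the log2 scale in mESC-ser (SE 0.14, adjusted p = 2.14e-07) and by 1.43 in EpiLC (SE 0.11, adjusted p = 5.63e-07) relative to mESC-2i, and it rose 2.12-fold in EpiLC against mESC-ser (log2 1.08, SE 0.14, adjusted p = 1.32e-06). It was the member with the fewest counts, 120 to 130 per mESC-ser library. The neuronal markers Tubb3, Neurod1 and Rbfox3 summed to 121 to 149 CPM for mESC-2i, 114 to 117 for mESC-ser and 40.5 to 41.6 for EpiLC, and their part in the level of Aldoc was not tested. That sum was mostly Tubb3 (133, 98.8 and 34.5 CPM), whereas Neurod1 was at 1.52, 15.5 and 4.57 CPM and Rbfox3 at 0.729, 1.28 and 2.06.

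As a share of the pair, Aldoc was 3% ± 0.137 (SD, n = 3) for mESC-2i, 0.83% ± 0.0969 for mESC-ser and 0.487% ± 0.0445 for EpiLC. The 3 ranges did not overlap, although the levels of both Aldoc and Aldoa were higher in EpiLC than in mESC-ser. Summed aldolase was 488 ± 42.3 RPKM for mESC-2i, 324 ± 8.82 for mESC-ser and 1112 ± 38.3 for EpiLC, with no overlap.

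Pkm (ENSMUSG00000032294, chr9:59656368-59679375, plus strand) passed both thresholds in none of the 3 comparisons. It gives rise to both PKM1 and PKM2 by alternative splicing, which a count per gene does not separate, so no share could be given. Its levels were 322, 340 and 302 RPKM in mESC-2i, 419, 407 and 464 in mESC-ser, with 370, 386 and 336 in EpiLC. mESC-ser was highest without overlap, and mESC-2i and EpiLC overlapped. The log2 fold change was 0.39 in mESC-ser against mESC-2i (SE 0.10, adjusted p = 0.0071), under the threshold on fold change, 0.18 for EpiLC over mESC-2i (SE 0.11, adjusted p = 0.146) and -0.17 for EpiLC over mESC-ser (SE 0.08, adjusted p = 0.0687). With total-count scaling these last were -0.16 and -0.51, and the second of them then passed. With the correction for length and GC content they were 0.43 (adjusted p = 0.00348) and -0.10 (adjusted p = 0.201), both under the threshold on fold change. Pkm ranked 52 of 22800 genes by mean RPKM in mESC-ser.

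**Figure D3:**
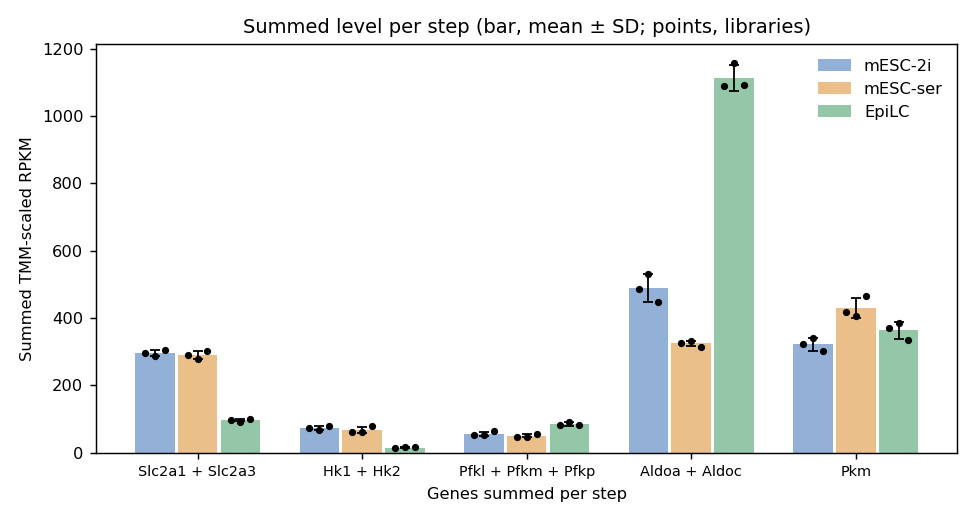
Summed TMM-scaled RPKM of the genes of each step, as bars for the mean of 3 libraries, error bars for the SD and points for libraries, on a linear axis from 0. In EpiLC the transporters (96.1) and hexokinases (15.1) are low beside mESC-2i (297 and 73.2), while phosphofructokinases (85.2) and aldolases (1112) are high beside mESC-2i (56.4 and 488).

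Set beside each other, the steps moved unequally in EpiLC. Summed transporter and hexokinase RNA were at 0.324 and 0.207 of the mESC-2i means and at 0.33 and 0.224 of the mESC-ser means. Phosphofructokinase and aldolase were at 1.51 and 2.28 times the mESC-2i means and at 1.69 and 3.43 times the mESC-ser means. Pkm was at 1.13 and 0.847 times. Between the mESC states the sums overlapped for transporters, hexokinases and phosphofructokinases, while aldolase was lower in mESC-ser (0.664) and Pkm higher (1.34), both without overlap. The transporter sums did not overlap with total-count scaling (0.933), nor the phosphofructokinase sums with the offsets (0.865). With total-count scaling the EpiLC ratios to mESC-2i were 0.256 (transporters), 0.163 (hexokinases), 1.19 (phosphofructokinases) and 1.8 (aldolases), and with the offsets 0.384, 0.299, 1.97 and 2.28, all without overlap. That of Pkm changed sides, at 0.895 and 1.31. These ratios are descriptions of group means, and RNA levels give no measure of glucose flux.

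Within each state the order of the members by mean RPKM also differed. In mESC-2i it ran Aldoa, Pkm, Slc2a3, Slc2a1, Hk2, Pfkp, Hk1, Pfkl, Pfkm and Aldoc, where Pfkp and Hk1 overlapped, as did Pfkm and Aldoc. In mESC-ser it ran Pkm, Aldoa, Slc2a1, Slc2a3, Hk2, Pfkl, Pfkm, Pfkp, Hk1 and Aldoc. In EpiLC it ran Aldoa, Pkm, Slc2a1, Pfkl, Pfkm, Hk2, Slc2a3, Aldoc, Pfkp and Hk1. Neighbours in the orders of mESC-ser and EpiLC did not overlap. Slc2a3 thus went from the third place in mESC-2i to the seventh in EpiLC, and Pfkl from the eighth to the fourth. The orders rest on merged exons as length. For some genes the longest transcript is much shorter (8681 instead of 13401 bases for Pfkp, 3730 instead of 6675 for Pfkl). Close neighbours can change places with it.

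**Figure D4:**
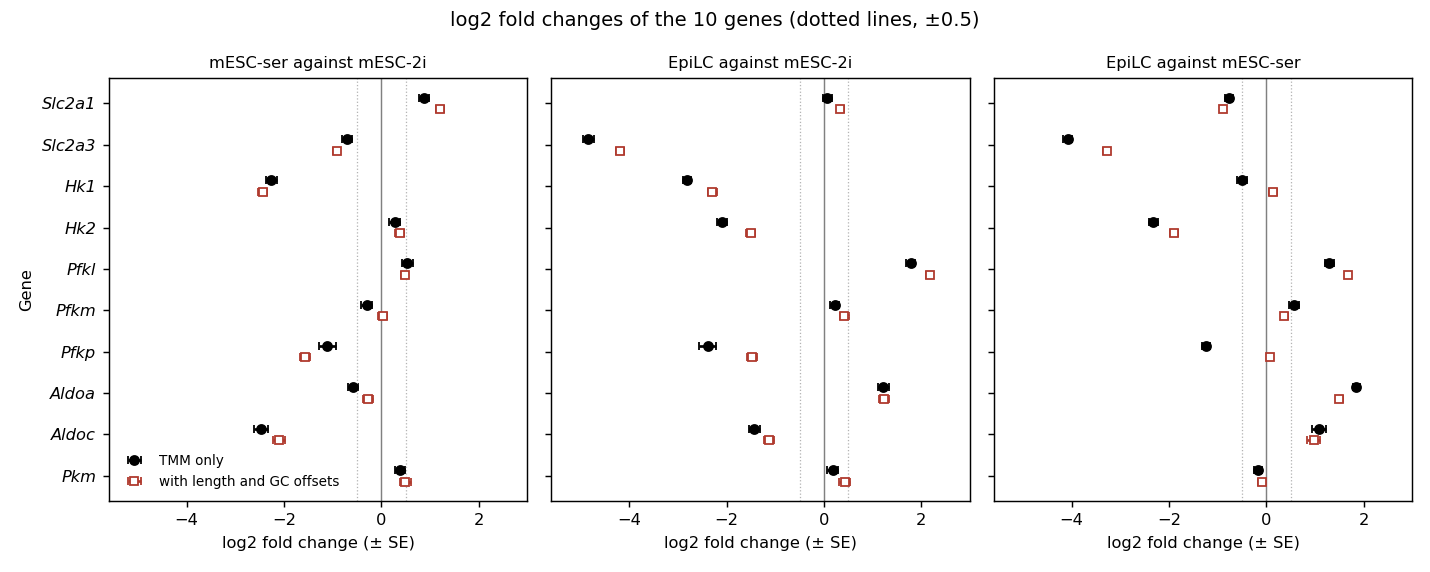
log2 fold change ± SE of each gene in the 3 comparisons, with libraries scaled by TMM (black circles) and with length and GC offsets added (red squares), and dotted lines at the threshold of 0.5 on either side of 0. In EpiLC against mESC-ser, Pfkp goes from -1.24 to 0.07 and Hk1 from -0.50 to 0.13, while Slc2a3 (-4.08 and -3.28) and Pfkl (1.29 and 1.67) stay on the same side in both fits.

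The states differed in most of the transcriptome, so counts of called members have to be read against a high background. In mESC-ser against mESC-2i, 7 of 10 members were called, and 56.2% of 15728 tested genes were. Of the members 2 rose (Slc2a1 and Pfkl) and 5 fell (Slc2a3, Hk1, Pfkp, Aldoa and Aldoc), where 25.9% of all genes rose and 30.3% fell. Pfkm and Pkm passed on the adjusted p alone and Hk2 did not, though with the replicate block Hk2 passed on it too (0.27, adjusted p = 0.00565). In EpiLC against mESC-2i, 7 of 10 were called and 69.8% of 15378 genes were, with 2 members higher (Pfkl and Aldoa, against 32% of genes) and 5 lower (Slc2a3, Hk1, Hk2, Pfkp and Aldoc, against 37.8%). In EpiLC against mESC-ser, 9 of 10 were called and 73.3% of 15345 genes were, with 4 members higher (Pfkl, Pfkm, Aldoa and Aldoc, against 35.5%) and 5 lower (Slc2a1, Slc2a3, Hk1, Hk2 and Pfkp, against 37.8%). With 10 members, these shares of calls are not read as different from the background. The median log2 fold change of the members was -0.44, -0.68 and -0.34 in this order, beside -0.04, -0.11 and -0.07 over all tested genes.

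The comparisons share libraries pairwise and are not independent of each other. With length and GC offsets, 5, 7 and 6 members were called in the same order of comparisons. With total-count scaling 6, 7 and 9 were called, of which 1, 2 and 3 rose. Over all genes in mESC-ser against mESC-2i, 8381 were called with the offsets, 8829 with total counts and 8843 with TMM, of 15728 tested. For EpiLC against mESC-ser with the offsets no such background is given here, so the 6 members are not read as a result. The split of all calls moved with the scaling in EpiLC. Against mESC-2i, 4922 genes rose and 5810 fell with TMM, 5926 rose and 4464 fell with the offsets, and 3709 rose and 7284 fell with total counts. Against mESC-ser, 5444 rose and 5802 fell with TMM, and 4294 rose and 7195 fell with total counts. Across genes the log2 fold change correlated with exonic length (Spearman) at 0.28 for mESC-ser over mESC-2i, -0.3 for EpiLC over mESC-2i and -0.498 for EpiLC over mESC-ser, among 13292, 13037 and 12919 protein-coding genes, which share the libraries and are not replicates.

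For the shares, 18 comparisons were made over 6 genes, and in all but 1 of them the ranges of the groups did not overlap. The exception was Pfkm in mESC-ser against mESC-2i, with a difference of -2.4 percentage points (two-sided exact permutation p = 0.4, adjusted p = 0.4). The others reached an exact permutation p of 0.1, the smallest that 3 against 3 libraries allow (Benjamini-Hochberg adjusted p = 0.106), so the design cannot bring a share under 0.05. In CPM, the ranges of 70.6%, 81.8% and 85.7% of all tested genes did not overlap in the 3 comparisons. Shares within an enzyme sum to 100% and are not independent.

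Some counts of the members may include or lose reads of other genes. The library kit did not mark strand, and the treatment of overlapping genes and of reads with several alignments was not given in the sources used here. Overlap with the exons of another annotated gene was largest for Pkm (767 bases with Gm49759, 15.3% of its exonic length), Pfkm (341 bases with Gm26513, 10.2%) and Pfkp (748 bases with Pitrm1 on the other strand, 5.58%). Slc2a1 and Hk1 have antisense partners (Gm12868 and Hk1os) that share 105 and 157 exonic bases, and reads of a gene and its antisense partner cannot be told apart. Pfkl and Aldoc overlap no gene. No stretch of 50 bases, the read length, was shared between 2 members, so reads of one isozyme would not fit another exactly. With other genes, among them pseudogenes, Pkm shared 25.8% of such stretches, Pfkm 8.83%, Aldoa 6.43%, Pfkp 5.1% and the rest 1.54% or less.

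Beyond the members, 41 further genes of glucose handling formed a list, tested gene by gene and not as a set. Of these 31 passed the filter in mESC-ser against mESC-2i, with 5 higher and 10 lower (median log2 fold change -0.26). For EpiLC, 29 passed it against mESC-2i, with 9 higher and 9 lower (median -0.15), and 30 against mESC-ser, with 13 higher and 6 lower (median 0.29). The shares of all tested genes called in either direction were 56.2%, 69.8% and 73.3%, and the list's calls in either direction show no excess over them. By direction, 25.9%, 32% and 35.5% of all genes were higher and 30.3%, 37.8% and 37.8% lower. In EpiLC against mESC-ser the list thus had more genes higher than lower, which all genes did not. With the offsets the list had 7 higher and 9 lower in mESC-ser against mESC-2i. With total counts it had 9 higher and 8 lower in EpiLC against mESC-ser. Pklr, the other pyruvate kinase gene, named after its values were seen, had 2, 4 and 3 counts in the mESC-2i libraries and 25, 23 and 28 in mESC-ser. It was called in that comparison (log2 2.59), but passed the filter there only through mESC-ser, the group where it was high.

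A list of 11 other transporters and Txnip had 7 tested genes in each comparison. Among them mESC-ser had 1 higher and 3 lower than mESC-2i, while EpiLC had 1 higher and 5 lower than mESC-2i, and 1 higher and 2 lower than mESC-ser, over the same backgrounds. Txnip, whose protein is induced by glucose and holds back its uptake, was the only abundant one. It stood at 178 ± 3.47 CPM (SD, n = 3) for mESC-2i, 173 ± 11.1 for mESC-ser and 41.3 ± 2.41 for EpiLC, and fell by 2.11 (SE 0.09, adjusted p = 1.46e-08) and 1.99 (SE 0.09, adjusted p = 3.6e-12) on the log2 scale in EpiLC against mESC-2i and mESC-ser. Txnip was thus low in the state where Slc2a3 was low. In mESC-ser against mESC-2i, Slc2a5, a fructose transporter, rose (log2 2.84), and Slc2a7 (-1.75), Slc2a4 (-1.26) and Slc2a8 (-1.10) fell. Slc2a7 rested largely on replicate 3 of mESC-2i, with 17, 33 and 108 counts in the 3 libraries, and its value was -0.85 without that replicate. In EpiLC against mESC-2i, Slc2a7 (-3.96, and -3.07 without the same replicate) and Slc2a8 (-0.87) fell and Slc2a5 (2.32, and 2.97 without replicate 2 of mESC-2i) rose. Between EpiLC and mESC-ser, Slc2a4 (0.63) rose, though not with the offsets (0.47), and Slc2a7 (-2.19, and -1.53 without replicate 2 of EpiLC) fell. None of these 4 had a group mean above the 23.2 CPM of Slc2a8 in mESC-2i. Slc2a5 had 2, 10 and 5 counts in the mESC-2i libraries. It passed the filter against mESC-2i only through mESC-ser or EpiLC, where it was high. Slc2a7 had 4, 0 and 3 counts in EpiLC, and passed the filter in the EpiLC comparisons only through the mESC state.

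The makers of fructose 2,6-bisphosphate, which activates phosphofructokinase, and the enzymes that oppose these steps formed a list of 10, of which 8 were tested in each comparison. Of these, 1 rose and 4 fell in mESC-ser relative to mESC-2i, and EpiLC had 2 higher and 4 lower relative to either mESC state. Over all tested genes, 25.9% rose and 30.3% fell in the first comparison. In EpiLC 32% rose and 37.8% fell against mESC-2i, and 35.5% and 37.8% against mESC-ser. With 8 genes, these counts are not read as different from the background. Pfkfb3, an activator maker with high kinase activity, was highest in mESC-ser, at 13.9 ± 4.15, 31.6 ± 3.08 and 12.7 ± 2.35 CPM (SD, n = 3) in mESC-2i, mESC-ser and EpiLC. It rose by 1.15 on the log2 scale in mESC-ser against mESC-2i (SE 0.19, adjusted p = 0.000339) and fell by 1.26 in EpiLC against mESC-ser (SE 0.13, adjusted p = 1.22e-07, and -0.54 with the offsets). Tigar (-1.04), which degrades the activator, G6pc3 (-0.87) and Fbp2 (-0.70, and -0.28 with the offsets) fell in mESC-ser against mESC-2i. The call of Fbp2 was lost without replicate 2 of mESC-2i and without replicate 1 or 3 of mESC-ser. Pfkfb2, another activator maker, fell by 3.01 in EpiLC against mESC-2i and fell by 2.35 against mESC-ser (-2.35 and -1.47 with the offsets). Fbp1, a gluconeogenic enzyme, rose at low levels (log2 3.15 and 2.44 in EpiLC against mESC-2i and mESC-ser, at 4.75 CPM in EpiLC), and the first was 4.0 without replicate 2 of mESC-2i. Fbp1 had 4, 11 and 2 counts in mESC-2i and 17, 12 and 11 in mESC-ser, and passed the filter only through EpiLC, where it was high. In EpiLC against mESC-2i, Pfkfb4 (-1.62) and Fbp2 (-1.42) fell as well, and in EpiLC against mESC-ser G6pc3 rose (1.82).

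Of 10 genes of the steps that these isozymes share, 4 rose in EpiLC against mESC-2i, where 32% of all tested genes rose (Eno3 by 2.05, Eno1 by 1.61, Gapdh by 1.38 and Tpi1 by 1.28 on the log2 scale), 3 passed on the adjusted p alone and 3 did not. Against mESC-ser 7 rose, where 35.5% of all genes did, but Gpi1 (0.35), Pgk1 (0.16) and Bpgm (0.37) lost the call with total-count scaling. The largest of the 7 changes were those of Pgam2 (1.83, and 0.79 with the offsets), Tpi1 (1.73), Gapdh (1.69) and Eno1 (1.23). Pgam2 was far less abundant than these others, at 1.29 CPM in mESC-ser (19, 15 and 23 counts) and 4.41 in EpiLC. Tpi1, Gapdh and Eno1 stood at 774, 481 and 2409 CPM in EpiLC. Against mESC-2i, Pgam2 in EpiLC was at -0.36, and at -0.95 with the offsets, where it was called lower. In mESC-ser against mESC-2i only Eno3 rose (1.64), and Pgam2 (-2.15) and Gpi1 (-0.64) fell. The median log2 fold change of this list was 0.41, 0.70 and -0.26 in these 3 comparisons. Of 4 lactate genes, Slc16a3, a lactate exporter, rose in all 3, by 3.84 for EpiLC over mESC-2i, 2.69 for EpiLC over mESC-ser and 1.19 for mESC-ser over mESC-2i. Ldha, the lactate dehydrogenase of glycolytic tissue, rose in EpiLC by 1.80 and 1.82 against mESC-2i and mESC-ser. Ldhb fell by 1.88 in mESC-ser against mESC-2i and rose by 1.51 in EpiLC against mESC-ser.

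Some genes outside the list followed the profile of a member closely. Likeness was the root mean square distance between log2 CPM values, each centred on its mean over the 9 libraries, among 10408 genes with a name of their own. The nearest gene was Kctd10 for Slc2a1 (distance 0.067), Heatr5b for Hk2 (0.051), Wdr18 for Pfkl (0.098), Sbk1 for Pfkm (0.062) and Fry for Pfkp (0.090). For Aldoa it was Eif4ebp1 (0.051), which encodes a repressor of translation initiation, for Pkm Wars (0.047), a tRNA synthetase, for Hk1 Bdh1 (0.106), a ketone body enzyme, and for Aldoc Plcl2 (0.134). Slc2a3 had the most distant nearest gene, Dnajc6 (0.207), at 57.2 ± 3.13 CPM (SD, n = 3) for mESC-2i, 36.9 ± 1.42 for mESC-ser and 1.98 ± 0.71 for EpiLC. With 3 states and 9 libraries, many of the 10408 genes share a pattern by construction, and the distances are a description.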

How the data were processed

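Poly-A RNA of the E14 states was sequenced as 50 bp single-end reads. Per the study, reads were trimmed with TrimGalore 0.6.6, aligned to mm10 with HISAT2 2.2.1 and counted with featureCounts of subread 2.0.1. The authors deposited raw counts per Ensembl gene, with no normalization. The annotation release was not given in the sources used here. Symbols, positions and exonic lengths were taken from GENCODE M21 (GRCm38), which matched 36429 of 38293 identifiers (95.1%). Columns were assigned by name.

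For each pair of states, edgeR 4.0.16 was run on the 6 libraries of that pair under R 4.3.3 (limma 3.58.1), with filterByExpr, TMM and the quasi-likelihood F-test, adjusted over all tested genes. The thresholds were an adjusted p of 0.05 and an absolute log2 fold change of 0.5. Levels are RPKM over merged exons, scaled by TMM over 9 libraries. Shares were computed per library and compared by exact permutation. Length and GC offsets came from natural splines (5 df each), fitted in each library. Likeness used log2 CPM with a prior count of 2 and was limited to genes averaging 100 counts or more in the highest group. Floors (3 counts) cover counting error only. Steps were tested on simulated data.

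Members, lists, thresholds and tests were chosen with earlier results of these data known. Genes named from the further list were the called genes with the largest change, at most 4 for each sublist and comparison. Some genes of that list are not reported here by name. The length and GC offsets together with the replicate block, the enzyme totals under other scalings, and values of the further list without single libraries were added after the data were seen. Alternatives changed the scaling (RLE, total counts), the filter (none, or 10 counts in each library), the tool (DESeq2 1.42.0), the fit (all 9 libraries, the replicate block), the threshold and the set of replicates. Same-numbered libraries of mESC-ser and mESC-2i deviated together (correlation 0.129 to 0.345 across genes, others -0.278 to 0.146). However, only 2 of the 3 mESC-ser libraries correlated best with their own number. The numbers were taken as a possible pairing of these libraries, from the data and not the labels. The main fits left it out, and only the replicate block used it.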

Additional observations from a re-analysis of the deposited data

How the results depend on the processing

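Over the alternatives other than leaving out a library, the log2 fold changes of the members kept their direction and their call (adjusted p and size together) in 246 values, were weaker in 14, stronger in 1 and reversed in 9. With length and GC offsets, alone or with the replicate block, Pfkm reversed to 0.03 in mESC-ser against mESC-2i, and Hk1 to 0.13 and Pfkp to 0.07 in EpiLC against mESC-ser. With total-count scaling, Slc2a1 (-0.27), Pfkm (-0.12) and Pkm (-0.16) reversed in EpiLC against mESC-2i, where the median of all genes was -0.45 (TMM -0.11, offsets 0.2). In EpiLC against mESC-ser that median was -0.41 (TMM -0.07, offsets 0.17). The cause was not tested. Hk1 in EpiLC against mESC-ser also missed the threshold with RLE (-0.48) and DESeq2 (-0.47). Pfkm there missed it without a filter (0.47), with at least 10 counts in every library (0.49) and in one fit of all libraries (0.49). On the adjusted p alone, Hk2 in mESC-ser against mESC-2i ranged from 0.000287 (block with offsets) to 0.135 (total counts), and Pfkm there was at 0.063 with RLE and 0.0913 with DESeq2 (0.0358 with TMM). Leaving out a library left the calls of 176 values as they were and weakened 4, of which 3 were of Hk1 in EpiLC against mESC-ser and 1 of Pfkl in mESC-ser against mESC-2i.

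The replicate block gave 7, 7 and 8 called members in mESC-ser against mESC-2i, EpiLC against mESC-2i and EpiLC against mESC-ser. In mESC-ser against mESC-2i, 8953 of all 15728 tested genes were called with the block. No such background is given here for the EpiLC comparisons, and these counts are not read as a result about the members. The block brought Hk2 in mESC-ser against mESC-2i under an adjusted p of 0.05 (0.00565), still short of the threshold on fold change. It changed 1 call of a member, Hk1 in EpiLC against mESC-ser (-0.50), a pair of states whose numbers were not taken to pair the libraries (correlations 0.0165 to 0.0335; 0.0195 to 0.112 for EpiLC against mESC-2i), though every library correlated best with its own number. A threshold of 1 on the log2 fold change left 3 members and 4935 of all genes called in mESC-ser against mESC-2i.

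Differences of shares, in percentage points, kept their sign except for Pfkm. For mESC-ser against mESC-2i, raw counts not divided by length gave -20.5 (Slc2a3), 28.8 (Hk2), 23.1 (Pfkl) and -2.42 (Aldoc), the offsets -34.6 (Slc2a3), 26 (Hk2), 4.25 (Pfkm) and -1.96 (Aldoc), and the longest transcript as length 32.5 (Hk2) and -1.37 (Aldoc). For EpiLC against mESC-2i, raw counts gave -69.1 (Slc2a3), 52 (Pfkl), 0.0306 (Pfkm), -52 (Pfkp) and -2.8 (Aldoc), the offsets -61.8 (Slc2a3) and -2.22 (Aldoc), and the longest transcript -64.7 (Slc2a3), 11.8 (Hk2) and -1.58 (Aldoc). For EpiLC against mESC-ser, raw counts gave -48.6 (Slc2a3), -17.9 (Hk2), 28.9 (Pfkl), -0.508 (Pfkm) and -28.4 (Pfkp), the offsets -27.2 (Slc2a3), 21.7 (Pfkl), -13.3 (Pfkm) and -8.38 (Pfkp), and the longest transcript -39.1 (Slc2a3), -20.7 (Hk2) and -0.215 (Aldoc). Without single replicates the difference of Pfkm in mESC-ser against mESC-2i ran from -4.81 to -0.577. Depth limited Aldoc most, at 120 counts in its lowest library. The shares themselves, and not only their differences, depend on the length used. Aldoa has 2911 bases of merged exons and a longest transcript of 1549, beside 3263 and 2786 for Aldoc. The longest transcript therefore gives Aldoc a smaller share.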

Other observations

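The genes around Slc2a3 were looked at after its values were seen. Within 100 kb of it on chromosome 6 lie 5 other annotated protein-coding genes, of which Nanog, a pluripotency factor, ends 13176 bases away. Nanog and Slc2a3 run toward each other, so these bases lie between their 3′ ends and not their starts. The gene nearest to the start of Slc2a3 is Foxj2, 18274 bases away. A link of Slc2a3 with any neighbour was not tested. Nanog stood at 657 ± 59.3 CPM (SD, n = 3) for mESC-2i, 283 ± 22.8 for mESC-ser and 61.2 ± 3.84 for EpiLC, so it had the same order of states as Slc2a3. It fell by 3.43 on the log2 scale in EpiLC against mESC-2i (SE 0.11, edgeR adjusted p = 2.56e-09) and by 1.24 in mESC-ser against mESC-2i (SE 0.12, adjusted p = 6.97e-06). Foxj2 and Dppa3 had a different order and were highest in mESC-ser, at 11.3 ± 1.56 and 15.4 ± 1.3 CPM beside 7.1 ± 1.26 and 6.13 ± 1.17 in mESC-2i. Necap1 fell by 0.85 in EpiLC against mESC-2i (SE 0.10, adjusted p = 1.19e-05), from 55.3 ± 1.35 to 30.6 ± 1.67 CPM. C3ar1 was near 0 in every state and was not tested.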
